A study of Arabidopsis thaliana with 12 samples.

Results

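RNA levels of 10 genes of the Arabidopsis thaliana nuclear RNA exosome and its helicases were followed across 4 genotypes. The genes were chosen by locus identifier from the 37184 genes counted: the subunits RRP4 (AT1G03360), CSL4 (AT5G38890), RRP41 (AT3G61620), RRP45A (AT3G12990) and RRP45B/CER7 (AT3G60500), the nucleases RRP44A (AT2G17510), RRP6L1 (AT1G54440) and RRP6L2 (AT5G35910), and the RNA helicases MTR4 (AT1G59760) and HEN2 (AT2G06990). Wild-type plants (Col-0) were set beside plants with the allele dxo1-2 or xrn3-8 and plants with both alleles (dxo1-2 xrn3-8, below called the double mutant), each genotype with 3 libraries labelled as biological replicates, 12 in all. All plants were 21-day-old seedlings from seeds kept for 2 days at 4 °C, then raised on soil with 16 h of light and 8 h of dark, and no group received a further treatment. The series asks how ribosomal RNA of the cytoplasm and the chloroplast is processed without DXO1, a plant protein of a family that acts on the 5′ end of RNA. XRN3 is a nuclear exoribonuclease that degrades RNA from the 5′ end. The Col-0, dxo1-2 and xrn3-8 libraries had been used in earlier series, and per the series' design text all 4 genotypes were grown, extracted and sequenced in parallel. The labels do not give the kind of lesion in either allele.

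The exosome works from the other end of the RNA. Its core is a ring of subunits topped by a cap of RNA-binding subunits, and attached or associated nucleases of the RRP44 and RRP6 types carry out degradation and trimming from the 3′ end. In the nucleus, helicases unwind RNA and hand it to the complex: in Arabidopsis MTR4 acts mainly in the nucleolus on precursors and by-products of ribosomal RNA, and HEN2 acts in the nucleoplasm on non-coding and faulty transcripts.

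The mutated genes checked the labels. DXO1 (AT4G17620) stood at 8.82 ± 0.172 CPM (counts per 1e6 counts of the scaled library; SD, n = 3) in Col-0, at 1.52 ± 0.217 in dxo1-2 and at 3.07 ± 0.0885 in the double mutant. XRN3 (AT1G75660) stood at 51.8 ± 0.375 CPM in Col-0, 21.6 ± 1.49 in xrn3-8 and 40.2 ± 3.40 in the double mutant. Both mutated genes were thus less reduced in the double mutant than in the single mutants, by log2 differences of 1.01 (SE 0.119) for DXO1 and 0.90 (SE 0.0759) for XRN3, with edgeR adjusted p = 2.7e-05 and 7.6e-07. Gene counts per library summed to 60138933 to 81494915, and the 10 genes had 214 to 3670 reads in each library. Summed leaf markers had medians of 7216 CPM in Col-0, 5350 in xrn3-8, 6671 in dxo1-2 and 4360 with both alleles. Of the 3 leaf markers, LHCB1.1 went the other way in dxo1-2, at 2345 ± 186 CPM against 2067 ± 226 in Col-0. The 3 root hair markers summed to at most 0.0770 CPM in any library. The highest sum of flower markers was 3.75 CPM and the highest level of the senescence marker SAG12 was 1.25 CPM, both in xrn3-8. In seedling tissue of mixed cell types, fewer cells of a type and less RNA per cell cannot be told apart.

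The 100 bases before the annotated start of 4 genes are shown because the results turn on them: RRP4 and RRP41 had the largest rises of the 10 in dxo1-2, HEN2 rose in xrn3-8, and RRP45B/CER7 is a ring subunit with a role in wax synthesis. Sequences are from the RefSeq copy of TAIR10.1, written 5′ to 3′ on the strand of the gene: RRP4 on the plus strand at chr1:824417-824516, RRP41 on the minus strand at chr3:22804105-22804204, RRP45B/CER7 on the plus strand at chr3:22353745-22353844 and HEN2 on the plus strand at chr2:2894804-2894903. Capitals mark matches on either strand to GGCCCA or AGCCCA, short elements common in promoters of plant growth and ribosome genes.
RRP4: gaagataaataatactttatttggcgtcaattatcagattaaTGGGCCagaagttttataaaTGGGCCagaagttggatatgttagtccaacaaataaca
RRP41: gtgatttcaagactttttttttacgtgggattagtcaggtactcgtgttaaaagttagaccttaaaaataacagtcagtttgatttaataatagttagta
RRP45B/CER7: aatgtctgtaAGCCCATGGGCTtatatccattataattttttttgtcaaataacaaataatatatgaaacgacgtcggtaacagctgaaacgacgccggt
HEN2: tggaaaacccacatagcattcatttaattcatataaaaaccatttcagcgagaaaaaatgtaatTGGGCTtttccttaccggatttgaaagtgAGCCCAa

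Over the window from 250 bases before to 50 bases after the start, on both strands, GGCCCA was found in 15.5% and AGCCCA in 14.2% of 27443 annotated genes, and the telo-box AAACCCTA in 6.22%. RRP4 held GGCCCA with first bases at -58 and -38 and a telo-box at 3 bases past the start. RRP45B/CER7 held AGCCCA at -120, -90 and -84, of which the last pair forms the palindrome in capitals above. HEN2 held AGCCCA at -114, -36, -7 and 32 and a telo-box at 8, RRP6L2 held a telo-box at 18 and AGCCCA at 30, and MTR4 held GGCCCA at 30. CSL4, RRP41, RRP45A, RRP44A and RRP6L1 held none of these letters in the window. Of the genes called higher in dxo1-2, RRP4, RRP45B/CER7 and MTR4 held motifs, and CSL4, RRP41 and RRP45A held none. Of those not called there, RRP6L2 and HEN2 held motifs, and RRP44A and RRP6L1 held none. The part of the motifs in these results was not tested.

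In Col-0 the nucleases and helicases were not uniformly more abundant than the core. Per length, as RPKM (CPM per kilobase of annotated exon), RRP44A at 10.5 ± 0.181, RRP6L2 at 10.2 ± 0.251 and MTR4 at 10.04 ± 0.177 (SD, n = 3) had the highest levels, with overlapping libraries. All 3 lay apart from the next genes in the order, RRP41 at 6.14 ± 0.673, RRP45B/CER7 at 6.11 ± 0.426 and RRP6L1 at 5.61 ± 0.255 RPKM, which overlapped each other. HEN2 at 4.55 ± 0.122 RPKM lay below these without overlap, and CSL4 at 4.44 ± 0.465, RRP4 at 3.53 ± 0.572 and RRP45A at 3.37 ± 0.285 followed, each overlapping its neighbour. The cap subunits and RRP45A were thus the least abundant transcripts of the 10. By mean CPM over the 12 libraries, the genes ranked between percentiles 38.3 (CSL4) and 85.4 (MTR4) of all tested genes.

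**Figure D1:**
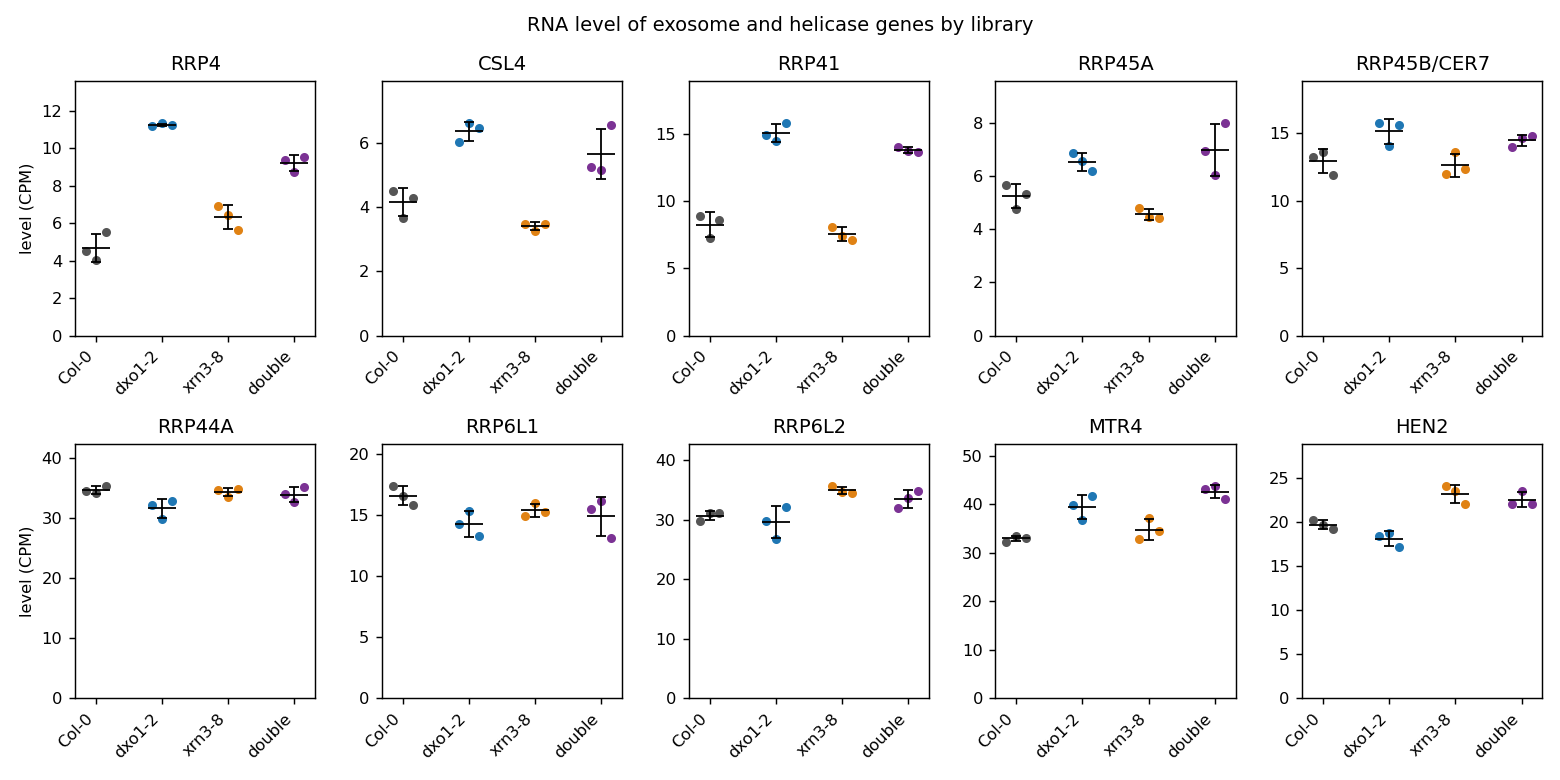
Level of each of the 10 genes in CPM (vertical axis, from 0) in the 12 libraries, with 1 point per library and the mean and SD of each genotype; "double" is dxo1-2 xrn3-8. RRP4 lies at 11.2 to 11.3 CPM in dxo1-2 against 4.04 to 5.51 in Col-0, while RRP44A stays between 29.8 and 35.3 CPM in all libraries.

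In dxo1-2, RNA of all 5 core subunits among the 10 genes and of the helicase MTR4 rose, and none of the 3 nucleases passed the test. In dxo1-2 against Col-0, 6 of the 10 genes rose and 0 fell (edgeR quasi-likelihood test, adjusted p under 0.05). Of the 21974 genes tested, all 10 among them, 42.1% were called in this comparison, 21.5% as higher. At an unadjusted p under 0.05, 1 of the 10 was lower (RRP6L1), and DESeq2 called 6 higher and 0 lower. The median log2 fold change of the 10 genes was 0.24, against 0.01 for all tested genes. For 9 of the 10 genes no library of 1 genotype lay within the range of the other, as for 55.7% of all tested genes. P-values set each difference against the spread among libraries, estimated from all 12 libraries in a single fit.

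RRP4, a cap subunit with RNA-binding domains, had the largest rise. Its level was 4.48, 4.04 and 5.51 CPM in the Col-0 libraries and 11.2, 11.3 and 11.2 CPM in dxo1-2. The dxo1-2 libraries were all above Col-0 and nearly equal to each other. The log2 fold change was 1.27 (SE 0.119, edgeR adjusted p = 1.7e-06), a 2.40-fold rise. CSL4, the other type of cap subunit, had 4.50, 3.67 and 4.30 CPM in Col-0 and 6.04, 6.62 and 6.47 CPM in dxo1-2, again without overlap. Its log2 fold change was 0.62 (SE 0.126, adjusted p = 0.0013).

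RRP41 is a ring subunit that retains phosphorolytic activity in plants. It had 8.92, 7.23 and 8.63 CPM in Col-0 and 14.9, 14.5 and 15.8 CPM in dxo1-2, and no library of 1 group reached the other group. Its log2 fold change was 0.87 (SE 0.0941, edgeR adjusted p = 6.3e-06), a 1.83-fold rise. RRP45A and RRP45B/CER7 are a duplicated pair that share the same place in the ring. RRP45A had 5.65, 4.77 and 5.34 CPM in Col-0 and 6.86, 6.55 and 6.19 in dxo1-2, and RRP45B/CER7 had 13.3, 13.6 and 11.9 CPM against 15.7, 14.1 and 15.6. Both pairs of groups were apart, by narrow margins. The log2 fold changes were 0.32 (SE 0.120, adjusted p = 0.047) and 0.23 (SE 0.0855, adjusted p = 0.044), and each call was lost under 8 of 19 alternatives, RRP45A without Col-0 replicate 2 (adjusted p = 0.14) and RRP45B/CER7 without Col-0 replicate 3 (adjusted p = 0.14) among them.

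The nucleases stood at or below their Col-0 levels in dxo1-2, with no call. RRP44A, the catalytic partner of the core, had 34.6, 34.1 and 35.3 CPM in Col-0 and 32.1, 29.8 and 32.8 CPM in dxo1-2, a log2 difference of -0.13 (SE 0.0656, edgeR adjusted p = 0.12). RRP6L1, which in Arabidopsis is tied to RNA-directed DNA methylation, had 17.3, 16.5 and 15.8 CPM against 14.2, 15.3 and 13.2, a log2 difference of -0.22 (SE 0.0916, adjusted p = 0.071). In both genes every dxo1-2 library was below every Col-0 library, yet neither passed the test. RRP6L1 was called lower under 1 of 19 alternatives, without double mutant replicate 3 (-0.22, edgeR adjusted p = 0.041). RRP6L2, a nuclear RRP6 protein that trims ribosomal RNA precursors, had overlapping groups and a log2 difference of -0.05 (SE 0.0750, adjusted p = 0.59).

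Of the helicases, MTR4 rose in dxo1-2 and HEN2 did not pass the test. MTR4 had 32.3, 33.5 and 33.1 CPM in Col-0 and 39.9, 36.7 and 41.7 CPM in dxo1-2, all of them above Col-0. The rise was 0.26 in log2 (SE 0.0724, edgeR adjusted p = 0.011). HEN2 had 20.2, 19.7 and 19.2 CPM in Col-0 and 18.4, 18.8 and 17.2 in dxo1-2, all of them below Col-0, with a log2 difference of -0.12 that did not pass the test (SE 0.0716, adjusted p = 0.19).

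**Figure D2:**
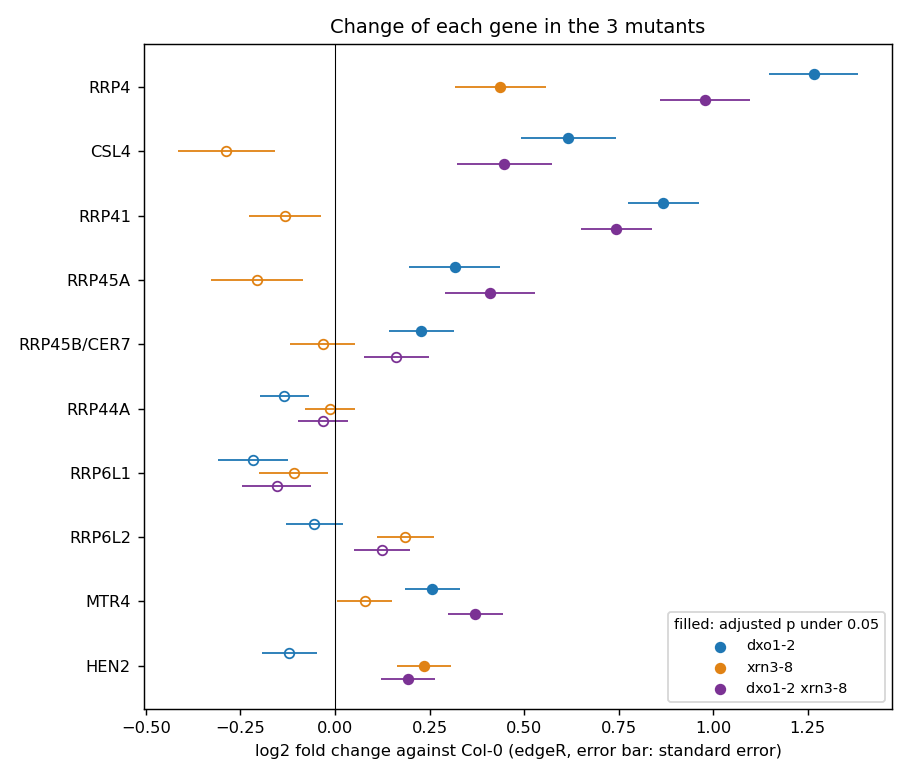
Log2 fold change of each gene against Col-0 (horizontal axis, edgeR; bars are standard errors) in dxo1-2, xrn3-8 and the double mutant, with filled points for adjusted p under 0.05. RRP4, CSL4 and RRP41 lie at 0.62 to 1.27 in dxo1-2 and 0.45 to 0.98 in the double mutant, whereas the 3 nucleases carry no filled point.

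In xrn3-8 the rises were those of RRP4 and HEN2. Against Col-0, 2 of 10 genes rose and 0 fell by edgeR, where 34.4% of all tested genes were called, 16.3% as higher. At an unadjusted p under 0.05, 3 were higher and 1 (CSL4) was lower, and DESeq2 called 3 higher and 0 lower. The median log2 fold change of the 10 was -0.02, against -0.0018 for all tested genes, and the libraries were apart for 4 of the 10 and for 47.1% of all genes. RRP4 had 6.91, 6.43 and 5.65 CPM in xrn3-8, above all Col-0 libraries though by a small margin in replicate 3. Its log2 fold change was 0.44 (SE 0.119, edgeR adjusted p = 0.011). HEN2 had 24.1, 23.5 and 22.04 CPM, clear of Col-0, with a log2 fold change of 0.24 (SE 0.0712, adjusted p = 0.019). Without Col-0 replicate 3, xrn3-8 replicate 1 or xrn3-8 replicate 2, HEN2 no longer passed (adjusted p = 0.056, 0.062 and 0.052), and the count of called genes fell to 1.

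The other core subunits gave no call in xrn3-8. CSL4 had 3.48, 3.26 and 3.47 CPM, below every Col-0 library, with a log2 difference of -0.29 (SE 0.128, edgeR adjusted p = 0.099). RRP41 and RRP45A overlapped Col-0, at log2 differences of -0.13 (SE 0.0951) and -0.21 (SE 0.121), and RRP45B/CER7 stood at -0.03 (SE 0.0856). RRP6L2 had 35.7, 34.7 and 34.5 CPM against 29.9, 31.2 and 31.1 in Col-0, all higher, with a log2 difference of 0.19 (SE 0.0748, edgeR adjusted p = 0.069). That value passed the threshold under 6 of 19 alternatives, upper quartile scaling (0.26, adjusted p = 0.015) and DESeq2 (adjusted p = 0.046) among them. RRP44A, RRP6L1 and MTR4 stood at -0.01 (SE 0.0655), -0.11 (SE 0.0913) and 0.08 (SE 0.0724).

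In the double mutant, 4 core subunits and both helicases were higher than in Col-0. In all, 6 of 10 genes rose (RRP4, CSL4, RRP41, RRP45A, MTR4 and HEN2) and 0 fell, by edgeR as well as by DESeq2, with 0 lower at an unadjusted p under 0.05. Of all tested genes 46.4% were called, 24.4% as higher and 22% as lower. The median log2 fold change of the 10 was 0.28, against 0.02 for all tested genes, and 8 of the 10 were apart from Col-0, where 55.6% of all genes were apart. RRP4 had 9.36, 8.71 and 9.55 CPM, above Col-0 and xrn3-8 but below all dxo1-2 libraries, that is, 0.98 on the log2 scale against Col-0 (SE 0.118, edgeR adjusted p = 1.3e-05). RRP41 had 14.1, 13.7 and 13.7 CPM, with a log2 fold change of 0.74 (SE 0.0937, adjusted p = 1.9e-05).

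MTR4 had its highest mean level in the double mutant, with 43.1, 43.8 and 41.1 CPM. Its log2 fold change was 0.37 (SE 0.0723, edgeR adjusted p = 0.00080). CSL4 had 5.27, 5.17 and 6.57 CPM and RRP45A 6.92, 6.04 and 7.97 CPM, both highest in replicate 3. Their log2 fold changes were 0.45 (SE 0.126, adjusted p = 0.0093) and 0.41 (SE 0.119, adjusted p = 0.012). HEN2 had 22.03, 23.5 and 22.1 CPM, a log2 fold change of 0.19 (SE 0.0710, adjusted p = 0.037). Without double mutant replicate 3 the calls of CSL4, RRP45A and HEN2 were lost (edgeR adjusted p = 0.055, 0.068 and 0.059), leaving 3 called genes. RRP45A also lost its call without Col-0 replicate 2 (adjusted p = 0.053). The HEN2 call was lost under 7 of 19 alternatives, with adjusted p of up to 0.13: without any 1 of the 3 double mutant libraries, without Col-0 replicate 2 or 3, with no filter on low counts and with only the genotypes compared. RRP45B/CER7, at 14.0, 14.6 and 14.8 CPM, was above every Col-0 library without passing the test (0.16, SE 0.0852, adjusted p = 0.13), and the nucleases lay between -0.15 and 0.12 with no call.

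The dxo1-2 allele was also tested on the xrn3-8 background, with libraries that share none with the comparison of dxo1-2 and Col-0. In the double mutant against xrn3-8, 5 of 10 genes rose and 0 fell, where 43.5% of all tested genes were called, 22.9% as higher. These 5 (RRP4, CSL4, RRP41, RRP45A and MTR4) were called higher on both backgrounds, as were 2695 of all tested genes (12.3%), which make up 57.2% of the genes raised by dxo1-2 on Col-0 and 53.5% of those raised on xrn3-8. RRP41 changed by nearly the same log2 step on xrn3-8 as on Col-0, 0.88 (SE 0.0936, edgeR adjusted p = 6.3e-06) and 0.87. CSL4 rose by 0.74 (SE 0.126, adjusted p = 0.00034), RRP45A by 0.62 (SE 0.119, adjusted p = 0.00088) and MTR4 by 0.29 (SE 0.0720, adjusted p = 0.0046). RRP4 rose by 0.54 (SE 0.115, adjusted p = 0.0018), less than its 1.27 on Col-0. RRP45B/CER7 stood at 0.19 (SE 0.0849, adjusted p = 0.078).

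The xrn3-8 allele on the dxo1-2 background raised HEN2 alone among the 10, and 31.8% of all tested genes were called in that comparison, 16.4% as higher. HEN2 had a log2 step of 0.31 there (SE 0.0711, edgeR adjusted p = 0.0039), so it was called higher with xrn3-8 on both backgrounds, as were 5.60% of all tested genes. RRP4 differed by -0.29 (SE 0.114, adjusted p = 0.068), with every double mutant library below every dxo1-2 library. That difference passed under 4 of 19 alternatives, among them upper quartile scaling (-0.32, adjusted p = 0.042) and DESeq2 (adjusted p = 0.048), which raised the count to 2.

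The interaction asks whether the alleles add up on the log2 scale. RRP4 was the 1 gene of the 10 with a call, at -0.72 (SE 0.165, edgeR adjusted p = 0.0066), where 20.9% of all tested genes were called, 8.67% as lower. The xrn3-8 allele went with 0.44 more RRP4 RNA on Col-0 and with 0.29 less on dxo1-2, on the log2 scale. The difference on dxo1-2 was not called by itself. DXO1 and XRN3 themselves had interactions of 0.85 (SE 0.158) and 0.71 (SE 0.106), since both were less reduced in the double mutant. Markers of dividing cells had their own interaction, with 8 of 8 called lower. Their sums had medians of 45.5 CPM in Col-0, 78.6 in xrn3-8, 58.3 in dxo1-2 and 44.0 with both alleles. The markers did not move together in the double mutant against Col-0. There 1 of the 8 was called higher and 1 lower, where 24.4% of all tested genes were higher and 22% lower. CYCB1;1 stood at 5.45 CPM in the double mutant against 2.20 in Col-0, and KNOLLE at 6.73 against 9.38. The part of these markers in the RRP4 result was not tested. For the other 9 genes the interaction lay between -0.03 and 0.30, with adjusted p of at least 0.24.

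Gene length differed between the roles. The 5 core subunits had annotated exon lengths of 936 to 2117 bases, and the nucleases and helicases 2950 to 4330. Among 11414 tested protein-coding genes in the shorter range, the median log2 fold change in dxo1-2 was 0.06, with 25.0% called higher and 17.7% lower. Among 2059 in the longer range it was -0.12, with 13.2% higher and 34.3% lower. In xrn3-8 the medians were -0.05 and 0.10, with 13.1% higher and 21.2% lower in the shorter range and 27% and 12.9% in the longer. The medians in the double mutant were 0.05 and -0.05. RRP4, RRP41 and CSL4 at 0.62 to 1.27, and MTR4 at 0.26, stood above the medians of their ranges in dxo1-2, whereas RRP44A at -0.13, RRP6L1 at -0.22 and HEN2 at -0.12 stood near that of theirs. HEN2 at 0.24 and RRP6L2 at 0.19 stood above the xrn3-8 median. The part of length in these results was not tested.

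**Figure D3:**
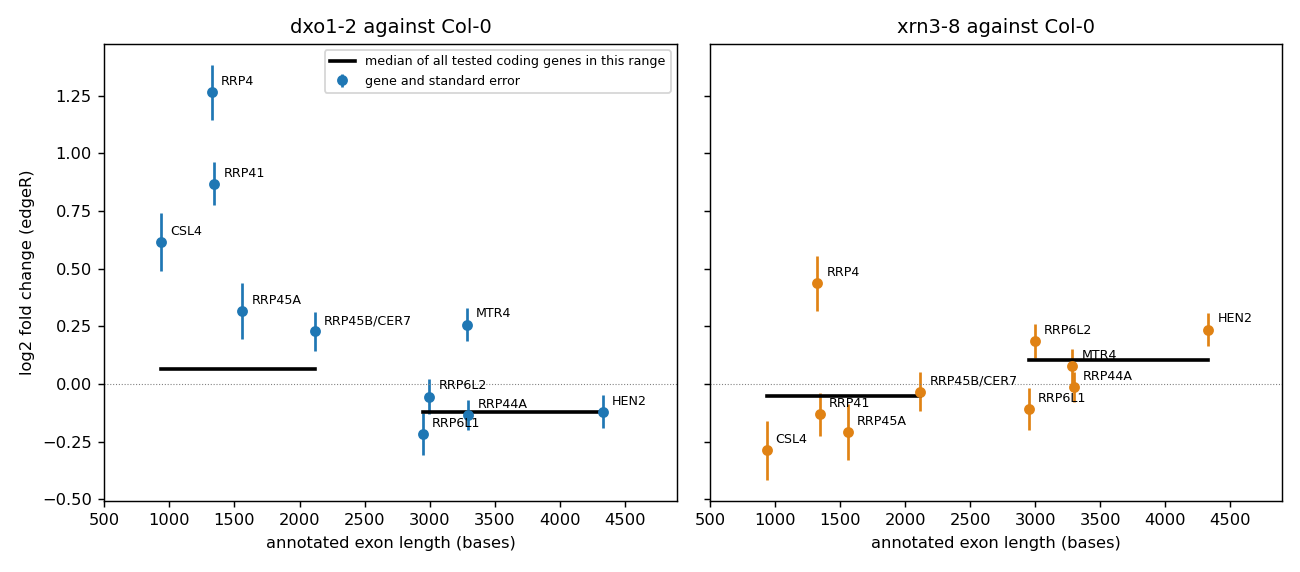
Log2 fold change against Col-0 (vertical axis; bars are standard errors) by annotated exon length in bases (horizontal axis) in dxo1-2 and xrn3-8. Black lines are medians of all tested protein-coding genes of the same lengths, 0.06 and -0.12 in dxo1-2 and -0.05 and 0.10 in xrn3-8; RRP4, RRP41 and CSL4 lie well above the line in dxo1-2.

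Several of the genes overlap a neighbour on the opposite strand, and whether strand was used in counting is not given in the sources used here. RRP45A shares 292 bases with AT3G13000, HEN2 shares 151 with AT2G07000, RRP45B/CER7 shares 96 with AT3G60510, RRP44A shares 43 with AT2G17500, RRP41 shares 17 with AT3G61610 and MTR4 shares 6 with ARF1, while RRP4, CSL4, RRP6L1 and RRP6L2 overlap no gene on the other strand. The partner of HEN2 was at 0.0273 CPM or less in every group mean. AT3G61610 had log2 differences of 0.03 and -0.24 in dxo1-2 and the double mutant, neither past the edgeR threshold, where RRP41 rose by 0.87 and 0.74. ARF1 fell by 0.24 in dxo1-2 and by 0.29 in the double mutant, where MTR4 rose, and AT2G17500 rose by 1.26 in the double mutant, where RRP44A stood at -0.03. AT3G13000, which has the longest overlap, rose in xrn3-8 by 0.43 (SE 0.126, adjusted p = 0.017), where RRP45A stood at -0.21. The same partner stood at 0.13 (SE 0.127, adjusted p = 0.43) in dxo1-2 and at 0.31 (SE 0.126, adjusted p = 0.057) in the double mutant, where RRP45A rose by 0.32 and 0.41. AT3G60510 also rose in xrn3-8, by 0.41 (SE 0.146, edgeR adjusted p = 0.040), where RRP45B/CER7 stood at -0.03. In dxo1-2 and the double mutant AT3G60510 stood at -0.18 and 0.03, neither past the edgeR threshold.

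Ratios within a library do not depend on the scaling between libraries. The ratios of RPKM of 3 related pairs were chosen after the levels had been seen, and with 3 libraries against 3 the smallest p an exact two-sided permutation test allows is 0.1, or 0.18 after adjustment over the 9 comparisons made. MTR4 over HEN2 was 2.11, 2.24 and 2.28 in the Col-0 libraries and 2.85, 2.57 and 3.20 in dxo1-2. It was 1.80, 2.09 and 2.06 in xrn3-8 and 2.58, 2.45 and 2.45 in the double mutant. The ratio was thus higher than in Col-0 in all dxo1-2 and double mutant libraries and lower in all xrn3-8 libraries (exact p = 0.1 each, 0.18 adjusted).

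The nuclease pair and the ring pair were compared in the same way. RRP6L2 over RRP6L1 was 1.83 ± 0.122 in Col-0 and 2.24 ± 0.110 in xrn3-8 (SD, n = 3), without overlap (exact p = 0.1, 0.18 adjusted). It was 2.24 ± 0.332 in the double mutant, also without overlap, and 2.06 ± 0.336 in dxo1-2, with overlap (exact p = 0.4). RRP45B/CER7 over RRP45A was 1.83 ± 0.244 in Col-0, 2.05 ± 0.211 in xrn3-8, 1.71 ± 0.140 in dxo1-2 and 1.55 ± 0.215 with both alleles, with overlap in every case.

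**Figure D4:**
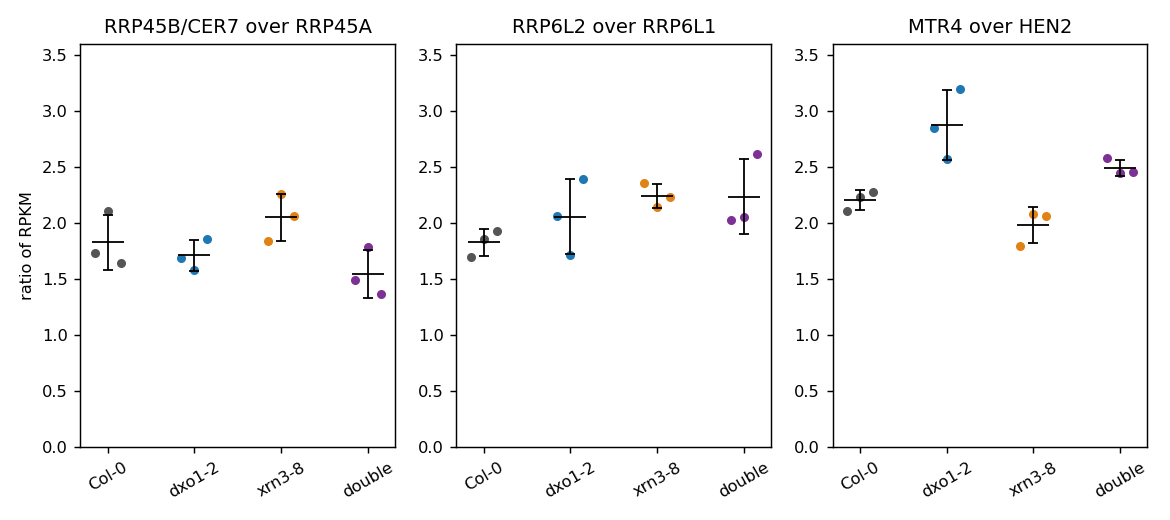
Ratio of RPKM between related genes (vertical axis, from 0) in the 12 libraries, with 1 point per library and the mean and SD of each genotype. MTR4 over HEN2 lies at 2.57 to 3.20 in dxo1-2 and 1.80 to 2.09 in xrn3-8, on opposite sides of the Col-0 libraries at 2.11 to 2.28.

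RRP45B/CER7 was named for its part in making leaf and stem wax, where it acts through the RNA level of CER3. CER3, an enzyme of wax alkane synthesis, had 35.2 ± 3.23 CPM in Col-0, 42.0 ± 3.92 in xrn3-8, 41.5 ± 0.714 in dxo1-2 and 38.0 ± 2.43 with both alleles (SD, n = 3). It rose by 0.24 in dxo1-2 (SE 0.0871, edgeR adjusted p = 0.041) and by 0.25 in xrn3-8 (SE 0.0870, adjusted p = 0.035), while the double mutant stood at 0.11 (SE 0.0869, adjusted p = 0.32). Each of the CER3 calls was lost under 6 of 19 alternatives, with adjusted p of up to 0.12: both without Col-0 replicate 2 or 3 and with the replicate block, that in dxo1-2 without any 1 of the dxo1-2 libraries, and that in xrn3-8 without replicate 2 or 3 of xrn3-8 and with only the genotypes compared. CER1, its partner enzyme, rose in all 3 mutants. Its level was 5.27 ± 0.237 CPM in Col-0, 10.97 ± 1.96 in dxo1-2, 8.79 ± 1.51 in xrn3-8 and 15.4 ± 3.80 with both alleles. The log2 fold changes of CER1 in dxo1-2, xrn3-8 and the double mutant were 1.06 (SE 0.177), 0.74 (SE 0.177) and 1.55 (SE 0.176). Those of RRP45B/CER7, in the same order, were 0.23, -0.03 and 0.16.

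Other genes of the pathway came from 3 lists compiled from general knowledge of the exosome; genes without a symbol are given by locus with the RefSeq product, and those outside the naming rule were named after their values were seen. The first list held 8 genes, further exosome subunits and related nucleases. In dxo1-2, 3 of the 8 rose and 1 fell, where 21.5% of all tested genes were called higher and 20.7% lower: AT4G32175 (PNAS-3-like protein) by 0.51 (SE 0.130, edgeR adjusted p = 0.0058), RRP41L (a homologue of RRP41) by 0.48 (SE 0.115, adjusted p = 0.0040) and AT3G07750 (exoribonuclease family) by 0.38 (SE 0.144, adjusted p = 0.047). SOV, a cytoplasmic relative of RRP44A also called RRP44B, fell by 0.45 in dxo1-2 (SE 0.149, adjusted p = 0.027), with overlapping libraries, and by 0.45 with both alleles (SE 0.149, adjusted p = 0.022). It was the 1 call of the list there, where 24.4% of all tested genes were called higher and 22% lower. In the double mutant 0 of the 8 rose (0 at an unadjusted p under 0.05, and 1 call by DESeq2). RRP41L stood at 0.22 there (SE 0.115). In xrn3-8, where edgeR called 34.4% of all tested genes, 0 of the 8 passed edgeR or DESeq2. At an unadjusted p under 0.05, 3 of them were lower. The 4 calls of this list in dxo1-2 dropped to 2 without Col-0 replicate 2, dxo1-2 replicate 1 or dxo1-2 replicate 2, and the median of the list there was 0.27.

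The second list held 8 nuclear cofactors. In dxo1-2, 3 rose and 2 fell, beside the same shares of 21.5% higher and 20.7% lower: AT5G25080 (Sas10/Utp3/C1D family) rose by 0.61 (SE 0.0858, edgeR adjusted p = 6.6e-05), AT5G53770 (nucleotidyltransferase family) by 0.52 (SE 0.106, adjusted p = 0.0013) and AT5G59460 (scarecrow-like factor in RefSeq) by 0.41 (SE 0.118, adjusted p = 0.013). AT1G21580, a zinc finger protein, fell by 0.57 (SE 0.0974, adjusted p = 0.00034), and AT5G38600, a zinc knuckle protein of the PSP family, by 0.41 (SE 0.0983, adjusted p = 0.0039). Both fell again in the double mutant, by 0.51 and 0.32, where AT5G53770 (0.48), AT1G67210 (0.45, zinc knuckle protein of the PSP family) and AT5G25080 (0.28) rose. In xrn3-8, where 16.3% of all genes were higher and 18.1% lower, 0 rose and 2 fell, AT5G59460 by 0.34 and AT2G40430 (Nop53 protein) by 0.30, and neither call held without Col-0 replicate 3, xrn3-8 replicate 1 or xrn3-8 replicate 3. The 5 calls in the double mutant, 3 higher and 2 lower, stood beside shares of 24.4% higher and 22% lower among all tested genes. They dropped to 3 without Col-0 replicate 2, Col-0 replicate 3 or double mutant replicate 2.

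The third list, 6 genes of the SKI complex and its partners, serves the exosome of the cytoplasm. In dxo1-2, 0 of 6 rose (0 at an unadjusted p under 0.05) and 4 fell, where 20.7% of all tested genes were lower, with a list median of -0.25: RST1, which bridges the SKI complex and the exosome, by 0.37 (SE 0.0728, edgeR adjusted p = 0.0011), AT3G46960 (ATP-dependent RNA helicase) by 0.28, AT1G76630 (tetratricopeptide repeat protein) by 0.26 and AT5G10630 (elongation factor family) by 0.23. These 4 calls dropped to 2 without Col-0 replicate 1 or replicate 3 and to 1 without dxo1-2 replicate 1. In the double mutant, where 46.4% of all tested genes were called, AT5G10630 alone was called, down by 0.32 (SE 0.0842, adjusted p = 0.0059). VIP3, a WD40 repeat protein shared with another complex, stood at 0.21 there (SE 0.172). In xrn3-8, where 34.4% of all tested genes were called, AT3G46960 alone was called, up by 0.28 (SE 0.0855, adjusted p = 0.019). It lost the call without Col-0 replicate 1, Col-0 replicate 2 or xrn3-8 replicate 1.

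**Figure D5:**
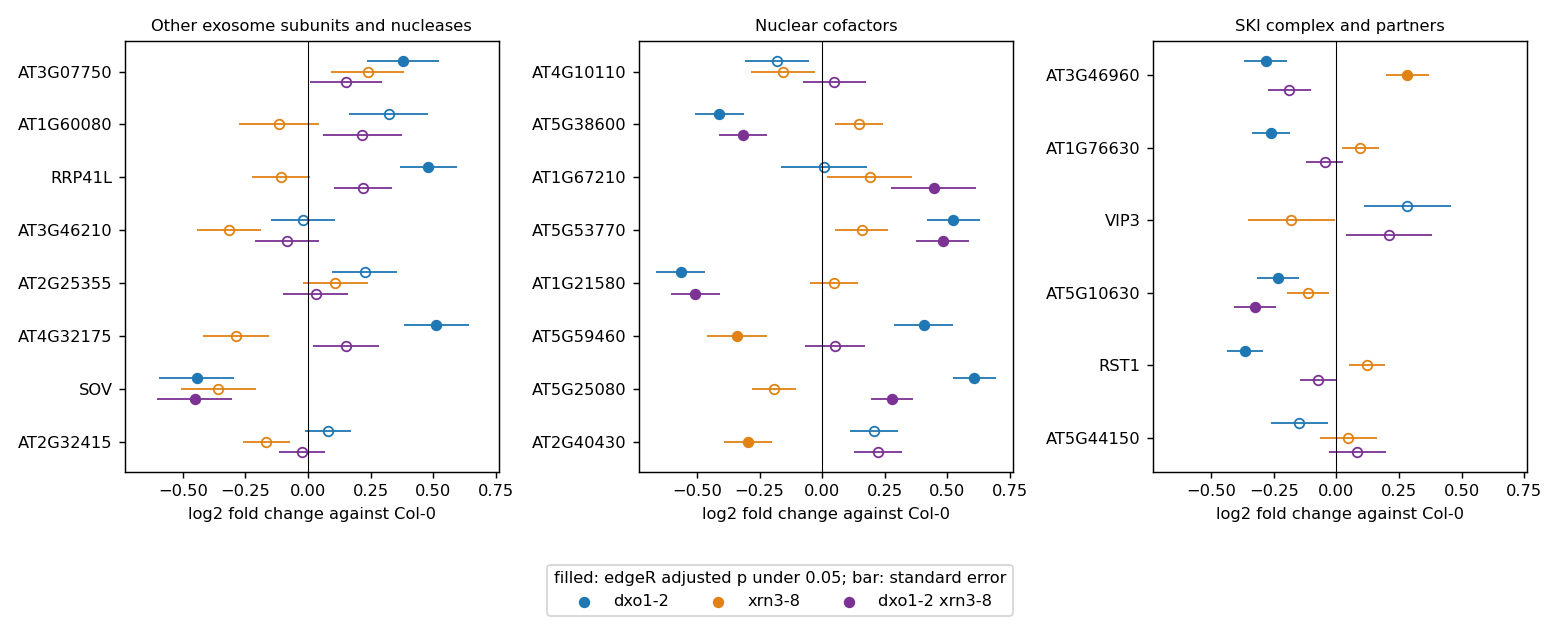
Log2 fold change against Col-0 (horizontal axis, edgeR; bars are standard errors) of further genes of the pathway in 3 lists, with filled points for adjusted p under 0.05. In dxo1-2, called SKI genes lie at -0.23 to -0.37, and called genes of the first list at 0.38 to 0.51 with SOV at -0.45.

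Genes whose levels ran most like those of MTR4, HEN2, RRP6L1 and RRP6L2, the nuclear helicases and RRP6 nucleases for which the naming rule asked this, were sought among 13460 genes of at least 5 CPM, by the root mean square difference of log2 CPM centred over the 12 libraries. The root mean square of the members' own centred levels, with which these differences are to be compared, was 0.157 for MTR4, 0.152 for HEN2, 0.117 for RRP6L1 and 0.115 for RRP6L2. MTR4 was most like PRMT11, an arginine methyltransferase (0.0598), and MEE40, a pentatricopeptide repeat protein (0.0624). HEN2 was most like AT1G53050, a protein kinase (0.0513), and AT3G61240, an RNA helicase of the DEA(D/H)-box family (0.0539). RRP6L1 was most like OEP37, of the chloroplast outer envelope (0.0568), and AT4G11860, a FAM63A-like protein (0.0588). RRP6L2 was most like AT3G56720, a splicing factor (0.0516), and SFC, a GTPase-activating protein (0.0657).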

How the data were processed

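Total RNA of 12 seedling libraries was sequenced after removal of ribosomal RNA with a stranded kit, per the labels' protocols. The submitters' processing notes name HISAT2 2.0.4, HTSeq 0.6.0, SAMtools 1.1 and the build TAIR10. The annotation and the strand setting are not given in the sources used here. The deposited files hold raw read counts for 37184 genes, made by the authors with no normalisation. The authors' summary lines were left out of all totals: 6.99 to 11.1% of reads had no feature, 0.900 to 1.21% were ambiguous, 1.51 to 2.08% were not aligned and 9.80 to 11.2% were not unique, so reads that paralogues share were not counted. The table of the whole series equals the single files in 12 of 12 columns and was not used further.

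Counts were fitted with edgeR 4.0.16 (R 4.3.3; quasi-likelihood F-test, TMM, filterByExpr with a minimum count of 10 and total of 15), which left 21974 genes. A single fit of the 12 libraries had a coefficient for each genotype. In each of 6 contrasts, Benjamini-Hochberg adjustment ran over all tested genes. A gene was called at an adjusted p under 0.05. The standard error is the log2 fold change divided by the root of F. CPM uses TMM-scaled library sizes, and RPKM divides by annotated exon length (RefSeq TAIR10.1), per the labels' build TAIR10. Library totals were 60138933 to 81494915. TMM factors were 0.863 to 1.17, and 41.3 to 53.5% of counts were plastid-encoded. No 2 libraries of a genotype matched within sampling noise (chi-square per degree of freedom 14.6 to 93.7 over 12 pairs), and no label gives a batch.

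Members and lists were chosen with earlier results of these data known. From each list, genes called with a log2 fold change of at least 0.5 in size in any mutant, and the 2 with the largest change in the double mutant, were to be named. Alternatives were other scalings (upper quartile, TMM over nuclear genes), DESeq2 1.42.0, no filter or a mean count of at least 50, only the genotypes compared, a replicate block and leaving out each library. Ratios were tested by exact permutation with scipy 1.17.1.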

Additional observations from a re-analysis of the deposited data

Results flagged for a closer look

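RRP4, a cap subunit of the exosome, had an effect of xrn3-8 that differed between backgrounds by a test of the difference itself. The log2 effect of xrn3-8 was 0.44 (SE 0.119) on Col-0 and -0.29 (SE 0.114) on dxo1-2. The effect on dxo1-2 was not called by itself (edgeR adjusted p = 0.068). The interaction was -0.72 (SE 0.165, edgeR adjusted p = 0.0066). All 3 xrn3-8 libraries were above Col-0, and all 3 double mutant libraries were below dxo1-2. The call held in all 18 alternatives that give an interaction, between -0.65 and -0.88, with adjusted p of 0.00043 to 0.018. XRN3 was less reduced in the double mutant than in xrn3-8, by a log2 difference of 0.90, and the part of this in the RRP4 result was not tested.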

How the results depend on the processing

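Counting all 6 contrasts and 10 genes, 1055 values under an alternative kept their direction and their side of the threshold, 29 lost a call, 13 gained one and 33 changed sign near 0 without a call. RRP4, CSL4, RRP41 and MTR4 in dxo1-2, and RRP4, RRP41 and MTR4 in the double mutant, stayed called in all 19 alternatives. The number of called genes leaving out 1 library ranged from 4 to 7 in dxo1-2 against Col-0 (6 with all libraries). It ranged from 1 to 3 in xrn3-8 against Col-0 (2) and from 3 to 6 for dxo1-2 xrn3-8 against Col-0 (6). For the double mutant it ranged from 5 to 6 against xrn3-8 (5) and from 1 to 2 against dxo1-2 (1). The last count was also 2 with upper quartile scaling, DESeq2 or only the genotypes compared. For these changes the cause was not tested, beyond the fewer samples that leaving out a library gives. Replicate numbers did not pair the libraries: the deviations of 18 same-numbered pairs correlated at -0.122 to 0.154, with 2 over 0.1, and those of 36 other pairs at -0.215 to 0.259. With the replicate block, 5, 2, 6, 1, 5 and 1 of the 10 genes were called in the 6 contrasts, and 8933, 7213, 9874, 6661, 9207 and 4258 of all genes; RRP45B/CER7 in dxo1-2 lost its call (adjusted p = 0.065). Upper quartile scaling shifted the median interaction of all genes by -0.11 and the share of calls that were higher from 47.4 to 59.4% in xrn3-8 and from 58.4 to 40.9% in the interaction. With it, uncalled log2 values in xrn3-8 changed sign to 0.042 for RRP45B/CER7 and 0.061 for RRP44A, and in the interaction to -0.10 for RRP41, -0.073 for MTR4 and -0.029 for HEN2. RRP44A in xrn3-8 became 0.0096 with TMM over nuclear genes and 0.0076 with a mean count of at least 50. The interaction of RRP41 became -0.023 with TMM over nuclear genes, -0.0028 with DESeq2, -0.013 with no filter and -0.011 with a mean count of at least 50. Leaving out 1 library, uncalled values spanned 0: RRP6L2 in dxo1-2 (-0.095 to 0.031), RRP45B/CER7 (-0.091 to 0.021) and RRP44A (-0.023 to 0.012) in xrn3-8, RRP6L1 (-0.0023 to 0.14) and RRP45A (-0.022 to 0.18) between the double mutant and dxo1-2, and RRP44A (-0.041 to 0.016) and RRP6L1 (-0.098 to 0.043) between the double mutant and xrn3-8. In the interaction the same held for RRP41 (-0.073 to 0.073), RRP45B/CER7 (-0.11 to 0.027), RRP6L2 (-0.094 to 0.035) and MTR4 (-0.036 to 0.088). The log2 ratio of RRP45B/CER7 over RRP45A in dxo1-2 ranged from -0.16 to 0.017. Ratios, list counts and wax genes were added as alternatives after seeing the data. Only the genotypes compared could give no interaction. The biological variation estimated by edgeR was 12.7%, and reads per library and gene were 214 to 3670 for the 10 genes.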
